A study of Vitis rotundifolia with 18 samples.

Results

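The libraries labelled Carlos at maturity were compared with the Carlos libraries of veraison, in berries of the muscadine grape Vitis rotundifolia. The 6 libraries were taken by cultivar label and stage, out of 18 in all: 3 replicates at E-L 38 and 3 at E-L 35. E-L stages are a numbered scale of grapevine growth, on which E-L 35 is veraison, when ripening sets in, and E-L 38 is maturity at harvest. The other 12 libraries are Carlos and Noble at E-L 32, which is bunch closure, Noble at E-L 35 and the libraries labelled Noble at E-L 38, with 3 replicates each. All berries came from 1 research station, no treatment is named, and each library is of total RNA from berries labelled only as berry, with no separation of skin, pulp and seed. The labels do not say what separates replicates, such as vines or picking dates, and p-values therefore reflect only how far these libraries vary, which may be technical variation. Carlos is a bronze-skinned cultivar and Noble a dark-skinned one.

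A grape berry changes from a hard, acid fruit into a soft, sweet one from veraison on. Cells loosen their walls and take up sugar, malic acid is consumed, skins of coloured cultivars fill with anthocyanins, and growth and photosynthesis genes of the green berry are turned down. Abscisic acid is regarded as a main signal of this change, since grapes ripen without the burst of ethylene seen in tomato. Transcripts measured between veraison and maturity therefore cover a late segment of the program, after it has begun. In bulk tissue such as this, fewer cells of a type and less RNA per cell cannot be told apart.

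The deposited tables name genes by identifiers that begin with VIT_ or ENSRNA and do not pair them with gene names. A reference table of 27334 muscadine genes matched 0 of the 27228 identifiers. Genes are therefore given by identifier alone, without a function, and lists of ripening pathways and of seed or cuticle genes could not be counted.

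The 6 libraries held 23821536 to 26957653 expected counts each, within the 18919160 to 30843026 of the whole series. Levels below are in CPM, counts per common library total after TMM scaling, unless TPM, which also accounts for length, is named. Differences are log2 fold changes of E-L 38 over E-L 35 with their standard error, from the edgeR quasi-likelihood test over 17657 genes. A gene was called at a Benjamini-Hochberg adjusted p under 0.05.

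The third Carlos replicate at E-L 35 stood apart from the other two. Across the genes tested, log2 CPM of replicates 1 and 2 correlated at 0.9908, whereas replicate 3 correlated at 0.9216 with replicate 1 and at 0.9202 with replicate 2. Replicates 1 and 2 differed by at least 2-fold in 874 genes (4.95%), and replicates 1 and 3 in 4633 (26.2%). The median standard deviation of log2 CPM in the group was 0.327 with replicate 3 and 0.078 without it, against 0.213 in the Carlos-labelled E-L 38 libraries. In replicate 3, 29.58% of all counts lay in its 10 most abundant genes, compared with 5.845% and 5.756% in replicates 1 and 2. On the first principal component, which carried 75.6% of variance over the 500 genes that varied most, replicates 1 and 2 lay at 46.61 and 46.36 and replicate 3 at 3.9, between them and the Carlos E-L 32 libraries, which lay from -112.9 to -111.97. On the second, with 10.7% of variance, replicate 3 was not between them. It lay at -29.56, its partners at -5.2 and -4.7, and the Carlos E-L 32 libraries from 34.27 to 36.04.

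**Figure D1:**
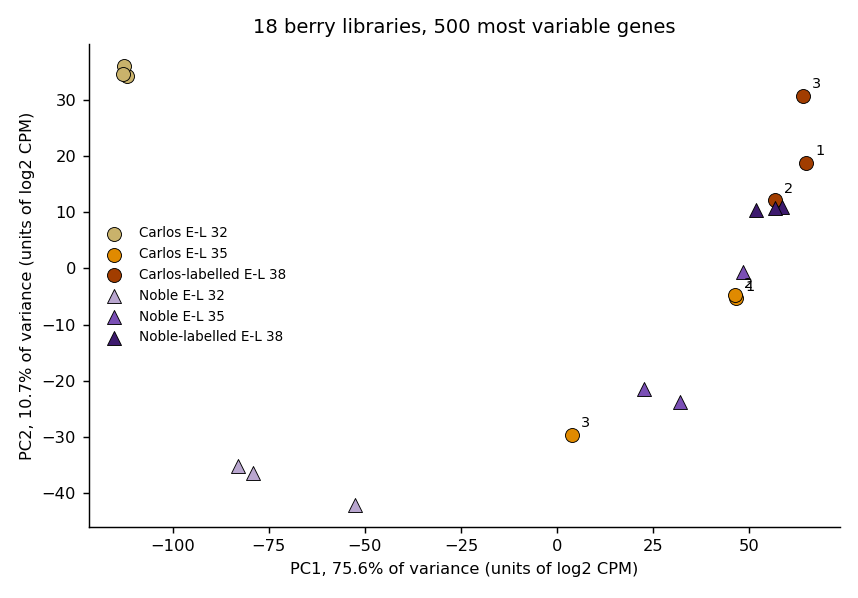
Position of the 18 libraries on the first 2 principal components of log2 CPM over the 500 most variable genes, with the 6 libraries compared here marked by replicate number. Carlos E-L 35 replicate 3 lies at 3.9 on the first component, while the other Carlos E-L 35 replicates lie at 46.61 and 46.36 and the Carlos-labelled E-L 38 libraries at 56.64 to 64.78.

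Genes at 10 CPM or more were looked at for what set replicate 3 apart. Of 10536 such genes, 281 (2.67%) were at least 4-fold higher in replicate 3 than the mean of replicates 1 and 2, and 373 (3.54%) were at least 4-fold lower. The 281 genes took 1.57% and 1.51% of the counts of replicates 1 and 2 and 27.3% of those of replicate 3. The 373 genes took 10.9%, 11% and 1.02%. In Noble libraries, which played no part in that choice, 182 of the 281 (64.8%) were at least 2-fold higher at E-L 32 than in E-L 35 replicates 1 and 3, compared with 9.92% of all 10536 genes. Of the 373, 285 (76.4%) were at least 2-fold lower in Noble at E-L 32, compared with 12.8% of all. By number of genes, the library thus differed from its 2 partners mostly in genes that also separate the earlier stage from veraison in Noble. The reverse held for 27 of the 281 genes (9.61%, compared with 12.8% of all) and 17 of the 373 (4.56%, compared with 9.92%). It also held for VIT_07s0005g03420 and VIT_07s0005g03410, which took 9.56% and 7.91% of the counts of replicate 3. These averaged 1690 and 968 CPM in Noble at E-L 32, with 4700 and 5600 CPM and 2700 and 3630 CPM in Noble E-L 35 replicates 1 and 3. In Carlos at E-L 32 they averaged 0.279 and 0.157 CPM. Replicate 3 of the Carlos-labelled E-L 38 group was also the least like its partners, at 0.9759 and 0.9766 compared with 0.9882 between replicates 1 and 2. Numbers of genes called and log2 fold changes of named genes against Carlos at E-L 35 are given below with and without its replicate 3.

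Cultivar names at E-L 38 are in doubt. Genes that separate the cultivars at both earlier stages were sought after the data had been seen: at least 5 CPM in all 6 libraries of a cultivar at E-L 32 and E-L 35, and at least 4-fold above the highest of the 6 libraries of the other. Noble had the higher level in 9 such genes and Carlos in 4. At E-L 38, 8 of the 9 Noble genes were higher in every library labelled Carlos than in every library labelled Noble, the ninth overlapped, and 0 went the other way. The 4 Carlos genes were all higher in every library labelled Noble, though VIT_19s0014g04930 only at 0.403, 0.043 and 0.492 CPM against 0 in the libraries labelled Carlos, after 6.25, 6.36 and 19.8 CPM in Carlos at E-L 35. By mean CPM, 7 of the 9 and 3 of the 4 genes differed at least 4-fold in these directions. Among all genes tested, 20.7% were higher without overlap in the libraries labelled Carlos and 21.1% in those labelled Noble.

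VIT_04s0008g04060 was the most abundant of the genes present in Noble and at 0 in Carlos at E-L 32. Its level in Noble was 257, 175 and 177 CPM at E-L 32 and 1360, 886 and 1290 CPM at E-L 35. In Carlos it was 0 in all 3 libraries at E-L 32 and 0.55, 0.486 and 0 CPM at E-L 35. At E-L 38 it was 1620, 1560 and 1120 CPM in the libraries labelled Carlos and 0, 0 and 2.79 CPM in those labelled Noble. The gene was thus abundant in every earlier Noble library and in every mature library labelled Carlos, and nearly undetected in the rest, although 10 of its 18 expected counts were not whole numbers. VIT_05s0020g03770, whose counts were whole, showed the mirror image. It stood at 34.5, 40.7 and 35.4 CPM in Carlos and 1.3, 4.91 and 1.11 CPM in Noble at E-L 35, and at E-L 38 at 1.13, 0.579 and 1.81 CPM in the libraries labelled Carlos and 38.4, 36.8 and 36.4 CPM in those labelled Noble. VIT_04s0044g00730 likewise fell from 30.3, 31 and 37.9 CPM in Carlos at E-L 35 to 1.82, 1.56 and 3.65 CPM in the libraries labelled Carlos at E-L 38, while those labelled Noble held 19, 17.2 and 20.3 CPM.

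Taken by median over the 9 Noble genes, the Noble libraries ranged from 12.3 to 14.7 CPM at E-L 35, the Carlos libraries from 0.618 to 1.07, the libraries labelled Carlos at E-L 38 from 10.2 to 11, and those labelled Noble from 0.805 to 1.51. Over the 4 Carlos genes the same medians were 1.36 to 2.52, 27.6 to 31, 1.07 to 2.73 and 15.5 to 24.2 CPM. At a minimum of 2-fold, 25 of 27 Noble genes and 11 of 11 Carlos genes went against the labels at E-L 38. A wider choice that used E-L 32 alone gave no such split by the number of genes that reached 1 CPM. It held 17 genes at 10 CPM or more in every Noble and 0 in every Carlos library of that stage. Of these, 12 reached 1 CPM in every Noble library at E-L 35, but so did 11 in every Carlos library. At E-L 38 the numbers were 10 in the libraries labelled Carlos and 11 in those labelled Noble. The summed level of the 17 genes overlapped at E-L 35, at 2400 to 3270 CPM in Noble and 1800 to 3040 CPM in Carlos. At E-L 38 it was 1660 to 2650 CPM in the libraries labelled Carlos and 503 to 857 CPM in those labelled Noble. VIT_04s0008g04060, with 1620, 1560 and 1120 CPM in the former, is part of that sum.

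**Figure D2:**
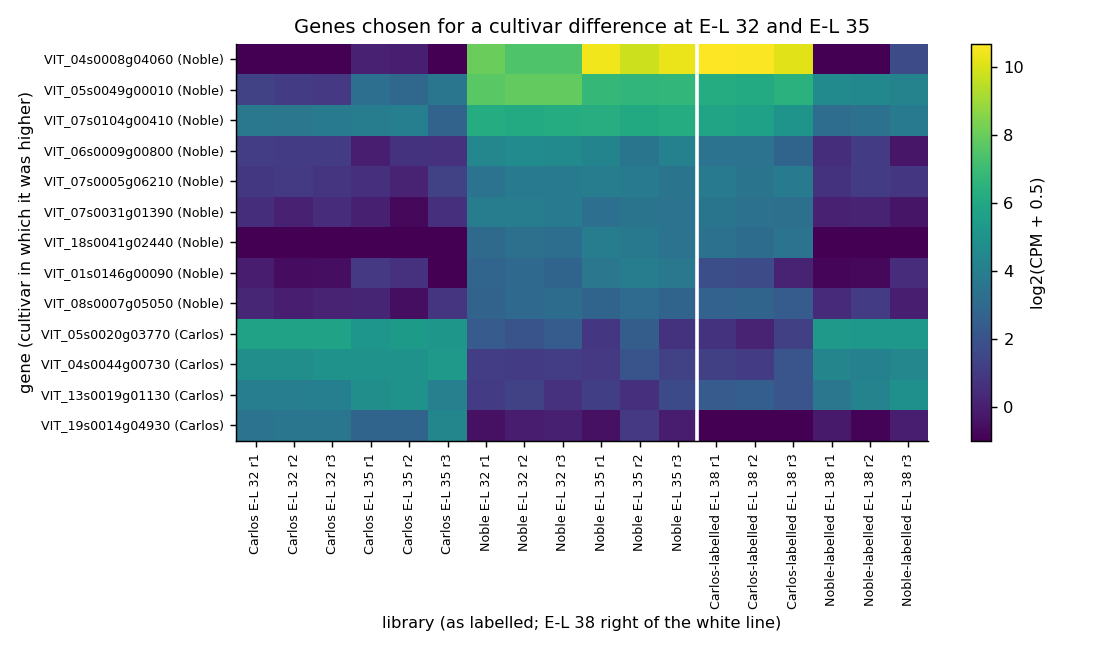
Level of the 13 genes chosen for a cultivar difference at E-L 32 and E-L 35, as log2(CPM + 0.5), in each of the 18 libraries, with the libraries of E-L 38, not used in the choice, right of the white line. For 8 of the 9 genes higher in Noble, all 3 libraries labelled Carlos at E-L 38 lie above all 3 labelled Noble, and for the 4 genes higher in Carlos they lie below.

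An exchange of the cultivar names between the groups of E-L 38 is therefore possible. If the names are right, the step described first below is the ripening of Carlos berries; if they are exchanged, it sets mature Noble against Carlos at veraison, and a cultivar difference is part of every fold change. The libraries keep their labels here, and 3 further comparisons give values that the question touches in different ways: the libraries labelled Noble at E-L 38 against Carlos at E-L 35, the Carlos-labelled ones against Noble at veraison, and all 6 mature libraries against Carlos at E-L 35, which does not depend on the names. The last of these still sets mature berries of both cultivars against Carlos alone, so a cultivar difference is part of it under either naming. All comparisons but the one against Noble share the 3 Carlos E-L 35 libraries, so their values are set side by side only.

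From Carlos at E-L 35 to the libraries labelled Carlos at E-L 38, 7149 of 17657 genes were called (40.5%), 3308 of them higher at E-L 38 (18.7%) and 3841 lower (21.8%). Falls were the deeper changes. The median log2 fold change was 0.78 among the genes that rose and -1.42 among those that fell. At least 2-fold changes numbered 1256 up (7.11%) and 2406 down (13.6%), at least 4-fold changes 530 up (3%) and 1504 down (8.52%), and at least 16-fold changes 130 up (0.736%) and 619 down (3.51%). Over all genes tested the median log2 fold change was -0.015.

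Without replicate 3, 6651 of 17899 genes were called (37.2%), with 3142 higher (17.6%) and 3509 lower (19.6%). At least 2-fold changes then numbered 1315 up (7.35%) and 1943 down (10.9%), at least 4-fold changes 579 up (3.23%) and 1046 down (5.84%), and at least 16-fold changes 170 up (0.95%) and 392 down (2.19%). The share of calls that were higher was 46.3% with the library and 47.2% without it at any fold, but 17.4% and 30.2% at 16-fold. The excess of deep falls was thus larger with replicate 3 and remained without it. Of the 17655 genes tested both ways, 5549 were called in the same direction both times, 2604 up and 2945 down, and 0 in opposite directions. These are 77.6% of the calls made with the library and 83.8% of those made without it. Of the 619 genes that fell 16-fold with it, 369 also fell 16-fold without it.

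**Figure D3:**
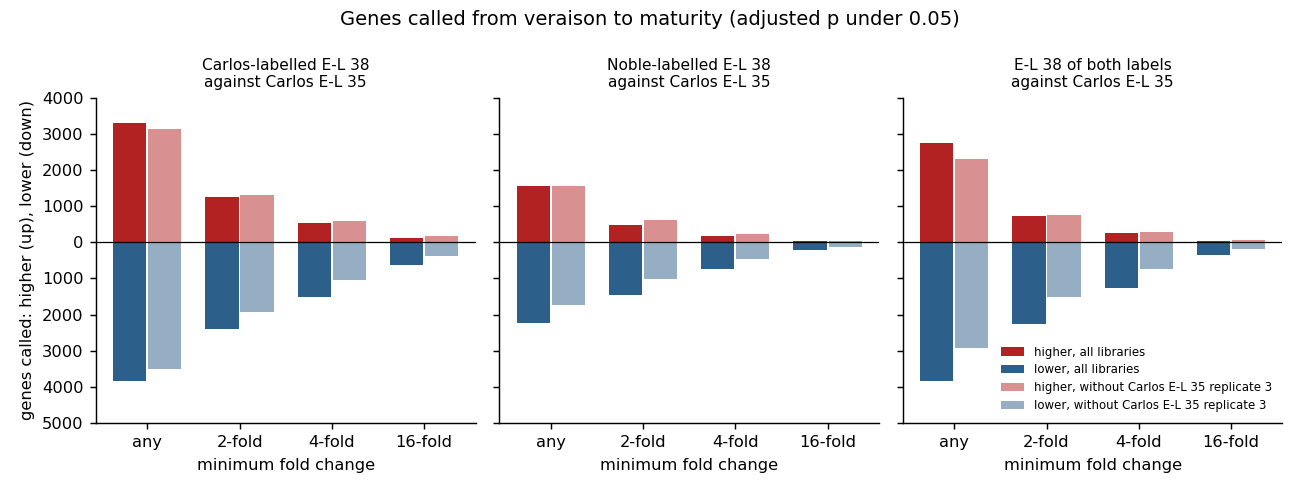
Number of genes called at each minimum fold change, higher at E-L 38 above the line and lower below it, with all libraries (dark) and without Carlos E-L 35 replicate 3 (pale), for the 3 comparisons against Carlos at E-L 35. In the libraries labelled Carlos, falls of 16-fold or more drop from 619 to 392 without that library, while rises go from 130 to 170.

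**Figure D4:**
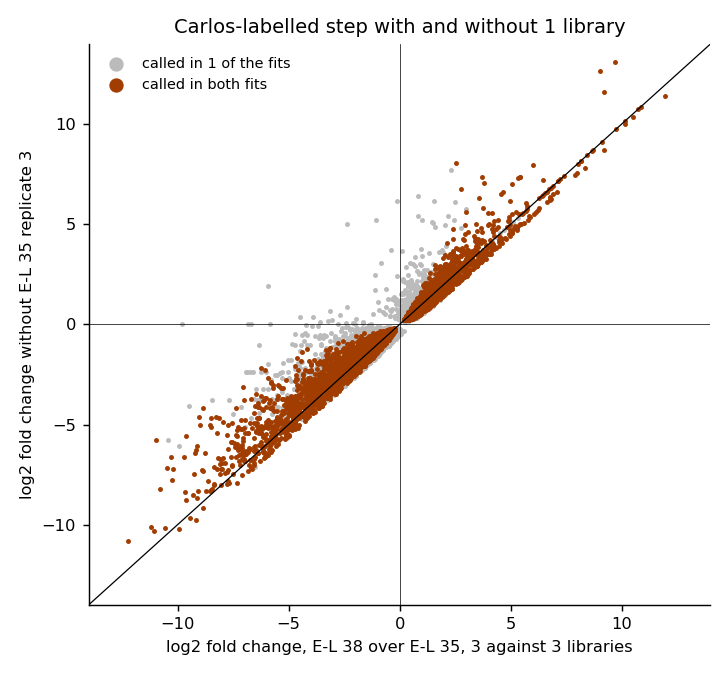
Log2 fold change of each gene called at least once in the Carlos-labelled step, with all libraries on the horizontal axis and without Carlos E-L 35 replicate 3 on the vertical axis, beside the line of equal values. The points called in both fits lie in the quadrants of equal sign, and many fallen genes lie above the line, which means a shallower fall without replicate 3.

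Genes that rose were mostly of moderate or high abundance, and genes that fell mostly of low abundance. The median TPM over the 6 libraries was 22.4 for the genes that rose, 6.7 for those that fell and 11.8 for all genes tested, and 18, 8.77 and 11.1 without replicate 3. Among 2947 genes under 1 TPM, 7.43% rose and 27% fell. Between 100 and 1000 TPM, among 1619 genes, 28.5% rose and 13.4% fell. That order held without replicate 3, at 7.92% and 20.9% under 1 TPM and 23.4% and 16.8% between 100 and 1000 TPM. The 108 genes at 1000 TPM or more did not continue it: 21 of them rose (19.4%) and 29 fell (26.9%).

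The genes called were a little longer than the rest. The median deposited length was 1489.5 bases for genes that rose, 1535 for genes that fell and 1423 for genes not called. Without replicate 3 these medians were 1562, 1520 and 1399, so the order of rising and falling genes turned while both stayed above the genes not called. Among the 4423 shortest genes, up to 1000 bases, 16.4% rose and 18.3% fell, and among the 4412 longest, from 2060 bases, 17.7% rose and 23.8% fell. Without replicate 3 the shares were 13.7% and 16.9% among the shortest and 18.5% and 20.4% among the longest. Non-whole expected counts, which arise where a read is divided among similar genes, occurred in 11.8% of genes tested, 13.3% of those that rose and 11.9% of those that fell.

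Seen as a part of the transcript pool, the genes that rose made up 18.5% and 18.6% of TPM in Carlos E-L 35 replicates 1 and 2, 12.5% in replicate 3, and 30.9%, 31.4% and 33.9% in the libraries labelled Carlos at E-L 38. Genes that fell went from 22.2%, 21.9% and 46.9% to 11.2%, 11% and 9.67%. These shares describe the genes the test itself chose. In libraries outside the comparison, the genes that rose held 22.4%, 22.7% and 23.8% of TPM in the libraries labelled Noble at E-L 38 and 26.7%, 21.4% and 26.7% in Noble at E-L 35. Both Noble groups thus lay between the Carlos E-L 35 and the Carlos-labelled E-L 38 libraries in this share.

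Few genes went from no counts to a clear level or back. In 9 of all 27228 genes, all Carlos E-L 35 libraries had 0 counts and all libraries labelled Carlos at E-L 38 had at least 1 CPM (11 genes without replicate 3), and 14 genes showed the reverse (17 without it). Of the 9 genes, 4 were at 1 CPM or more in every Noble library at E-L 35, and of the 14, 2 were. The share of all genes at that level was not counted, so nothing is read from these 2 numbers. With the libraries labelled Noble at E-L 38 in place of those labelled Carlos, 0 genes appeared and 2 disappeared in this way (0 and 4 without replicate 3).

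Genes are named below by their log2 fold change without Carlos E-L 35 replicate 3, among those called the same way with all libraries, with a mean of 10 CPM or more in the higher group and 1 CPM or more in the lower, and with no overlap of libraries. These limits leave out genes near 0 in the lower group, such as VIT_04s0008g04060 above, with a log2 fold change of 11.96, or 11.4 without replicate 3. Of the 3311 genes within the limits for the Carlos-labelled step, VIT_03s0063g01330 and VIT_03s0063g01290 had the largest rises. VIT_03s0063g01330 stood at 23.7, 21.7 and 2.05 CPM in Carlos at E-L 35 and at 662, 659 and 4010 CPM in the libraries labelled Carlos at E-L 38. The groups lay far apart, with replicate 3 the lowest at E-L 35 and the highest at E-L 38. Its log2 fold change was 6.81 ± 1.61 (edgeR adjusted p = 0.0041), 6.27 ± 1.72 without Carlos E-L 35 replicate 3 (adjusted p = 0.01) and 5.37 without Carlos-labelled E-L 38 replicate 3. In the libraries labelled Noble at E-L 38 it reached 99.7, 104 and 27.6 CPM, above every Carlos E-L 35 library but below every library labelled Carlos.

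VIT_03s0063g01290 also showed the largest gain in mean CPM within the same limits, without replicate 3. It stood at 156, 161 and 11.3 CPM in Carlos at E-L 35 and at 8680, 8250 and 19000 CPM in the libraries labelled Carlos at E-L 38, where every library exceeded every E-L 35 library. The log2 fold change was 6.77 ± 1.54 (edgeR adjusted p = 0.0032), and 6.22 ± 1.63 without replicate 3 (adjusted p = 0.0079). Noble libraries at E-L 35 held 883, 61 and 1130 CPM, and those labelled Noble at E-L 38 652, 646 and 99.8 CPM. Their expected counts were non-whole in 15 and 17 of the 18 libraries, so the division of their levels among similar genes is uncertain.

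The second largest such gain was in VIT_18s0072g00380, whose counts were whole. It rose from 1910, 1960 and 1040 CPM to 3360, 4740 and 5580 CPM without overlap, a log2 fold change of 1.48 ± 0.26 (edgeR adjusted p = 0.00056), or 1.22 ± 0.24 without replicate 3 (adjusted p = 0.0011). In TPM it averaged 2590 at E-L 35 and 6950 at E-L 38. The libraries labelled Noble at E-L 38 lay between, at 2340, 2970 and 2330 CPM.

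Within the limits, and ranked without replicate 3, the largest falls were in VIT_19s0015g02680 and VIT_06s0004g07770. VIT_06s0004g07770, with whole counts, went from 233, 245 and 20.7 CPM in Carlos at E-L 35 to 3.36, 2.63 and 1.76 CPM in the libraries labelled Carlos at E-L 38. Replicate 3 was more than 10-fold below its partners at E-L 35, yet above every E-L 38 library. The log2 fold change was -6.00 ± 0.72 (edgeR adjusted p = 2.7e-05), and -6.54 ± 0.32 without replicate 3 (adjusted p = 7.8e-09). In Noble at E-L 35 the gene was at 4.65, 4.52 and 6.11 CPM, and in the libraries labelled Noble at E-L 38 at 234, 230 and 198 CPM. Its level in the mature libraries labelled Carlos was thus near that of Noble at veraison, and in those labelled Noble near that of Carlos replicates 1 and 2 at veraison.

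VIT_19s0015g02680 had the same arrangement. It stood at 1390, 1400 and 28.3 CPM in Carlos at E-L 35 and 14, 14.1 and 12.7 CPM in the libraries labelled Carlos at E-L 38, with 4.87, 2.85 and 26.2 CPM in Noble at E-L 35 and 1610, 1500 and 1120 CPM in the libraries labelled Noble at E-L 38. The log2 fold change was -6.11 ± 1.53 (edgeR adjusted p = 0.0058), and -6.70 ± 1.22 without replicate 3 (adjusted p = 0.00065). Its expected counts were not whole in 17 libraries.

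The largest losses in mean CPM under the same limits were those of VIT_07s0005g03420 and VIT_07s0005g03410, whose fold changes depended strongly on 1 library. VIT_07s0005g03420 stood at 5360, 5130 and 115000 CPM in Carlos at E-L 35 and at 617, 633 and 171 CPM in the libraries labelled Carlos at E-L 38. VIT_07s0005g03410 went from 3610, 3540 and 94800 CPM to 337, 360 and 97.3 CPM. The E-L 35 and E-L 38 libraries did not overlap in either gene, and replicate 3 exceeded its partners more than 10-fold. The log2 fold changes were -6.46 ± 1.25 and -7.00 ± 1.32 (edgeR adjusted p = 0.001 and 0.0009), and -3.48 ± 0.67 and -3.77 ± 0.71 without replicate 3 (adjusted p = 0.00095 and 0.00089). In the libraries labelled Noble at E-L 38, VIT_07s0005g03420 held 7360, 6640 and 7700 CPM, above Carlos E-L 35 replicates 1 and 2. Neither gene had whole expected counts in 16 of the libraries.

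**Figure D5:**
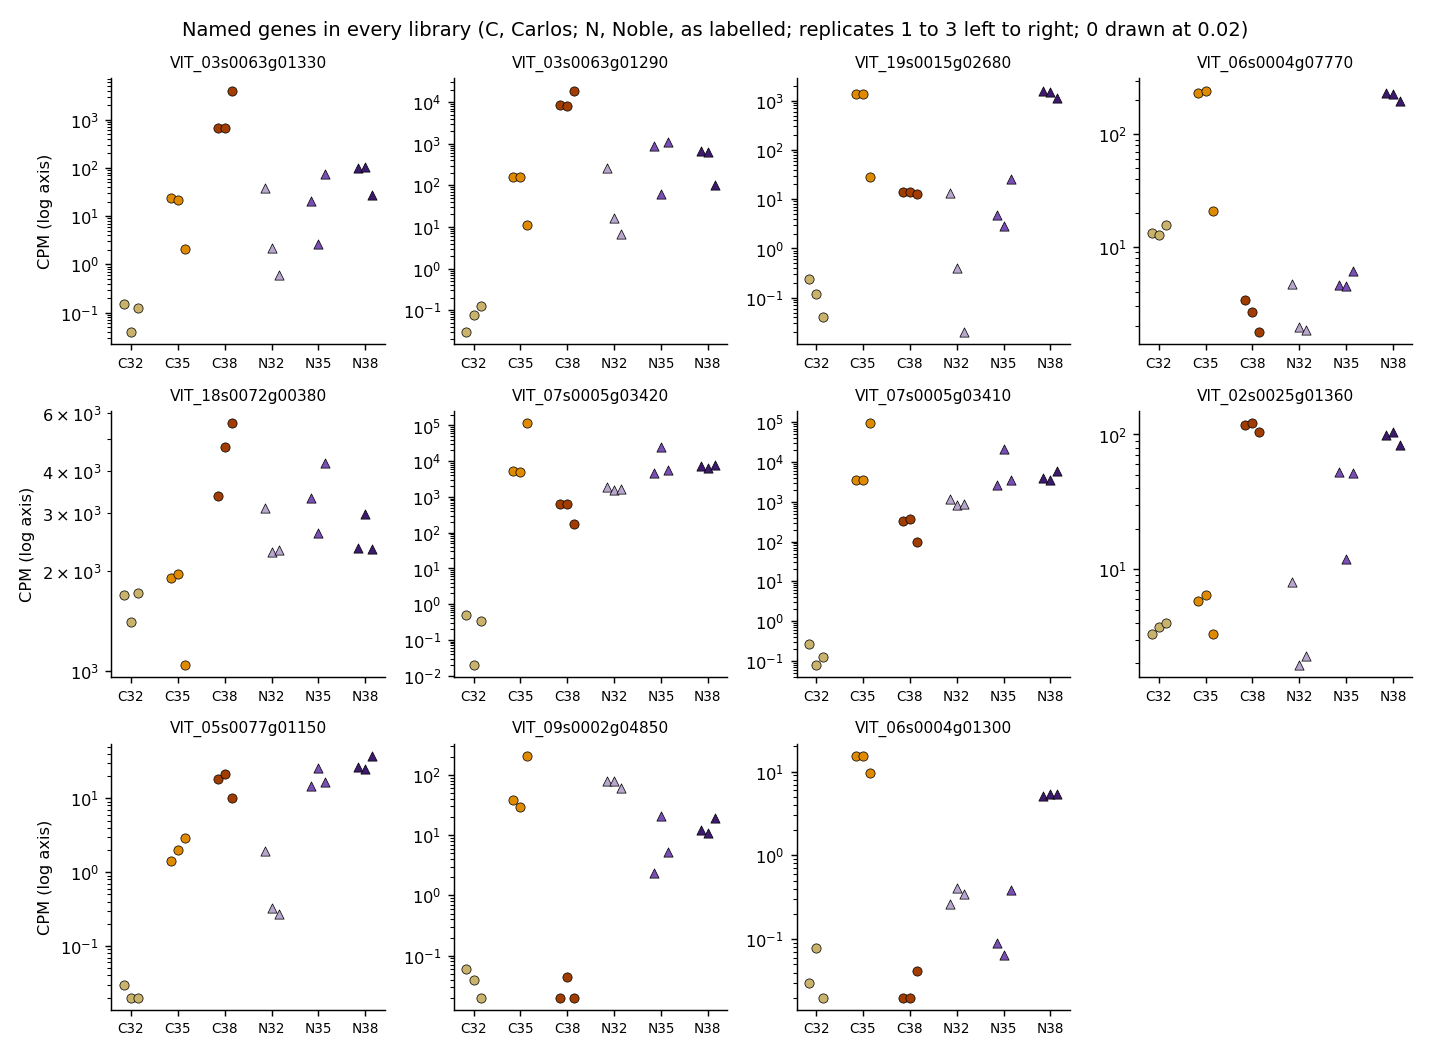
CPM on a log axis of the genes named for the Carlos-labelled step and for the step of both labels, in each of the 18 libraries, with replicates 1 to 3 from left to right, C for Carlos and N for Noble as labelled, and 32, 35 and 38 for the E-L stage. VIT_06s0004g07770 and VIT_19s0015g02680 are low in the libraries labelled Carlos at E-L 38 and high in those labelled Noble, while VIT_02s0025g01360 and VIT_05s0077g01150 are above all Carlos E-L 35 libraries in all 6 mature libraries.

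With the libraries labelled Noble as the mature end point, fewer genes were called. Against Carlos at E-L 35, 3787 genes passed the test (21.4%), with 1547 higher (8.76%) and 2240 lower (12.7%), and at least 16-fold changes numbered 29 up (0.164%) and 213 down (1.21%). Without Carlos E-L 35 replicate 3 the numbers were 3305 called (18.5%), 1570 up (8.77%) and 1735 down (9.69%), with 48 (0.268%) and 129 (0.721%) at 16-fold. Leaving out replicate 1, 2 or 3 of the libraries labelled Noble gave 2349, 2145 or 2523 calls. The mature libraries labelled Noble were also the closer ones by correlation of log2 CPM with Carlos at E-L 35: across the 9 pairs of libraries it ran from 0.8948 to 0.9624 with a median of 0.9583, compared with 0.8347 to 0.9392 and a median of 0.9195 for the libraries labelled Carlos. Without replicate 3 the medians were 0.9616 and 0.93685. Against Noble at E-L 35 the medians were 0.9341 for the libraries labelled Noble and 0.9449 for those labelled Carlos, with overlapping ranges.

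Within the limits on level and overlap, VIT_05s0077g01150 and VIT_02s0025g01360 had the largest rises of this comparison without replicate 3. VIT_02s0025g01360 stood at 5.77, 6.45 and 3.31 CPM in Carlos at E-L 35, at 99.7, 105 and 83 CPM in the libraries labelled Noble at E-L 38 and at 118, 121 and 104 CPM in those labelled Carlos. VIT_05s0077g01150 stood at 1.41, 1.99 and 2.89 CPM, then at 26.1, 25.2 and 37.2 CPM in the libraries labelled Noble and 18.1, 21.5 and 10.2 CPM in those labelled Carlos. Both genes were higher in all 6 mature libraries than in any Carlos library at E-L 35. In Noble at E-L 35, VIT_02s0025g01360 was at 53, 11.9 and 51.6 CPM, below every mature library. VIT_05s0077g01150 was at 14.6, 25.5 and 16.8 CPM there, within the range of the mature libraries. The log2 fold changes against the libraries labelled Noble were 4.21 ± 0.56 (edgeR adjusted p = 0.0002) for VIT_02s0025g01360 and 3.82 ± 0.53 (adjusted p = 0.00028) for VIT_05s0077g01150, and 3.97 ± 0.61 and 4.12 ± 0.57 without replicate 3 (adjusted p = 0.00047 and 0.0002).

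Among the falls named by the same limits, VIT_16s0022g01430 went from 203, 223 and 423 CPM in Carlos at E-L 35 to 8.31, 6.71 and 8.61 CPM in the libraries labelled Noble, a log2 fold change of -5.17 ± 0.56 (edgeR adjusted p = 5e-05), or -4.75 ± 0.51 without replicate 3 (adjusted p = 2.1e-05). The libraries labelled Carlos held 14.3, 13.9 and 2.06 CPM, so the gene was low in all mature libraries. VIT_17s0000g02050 went from 129, 128 and 9.74 CPM to 1.96, 2.07 and 4.51 CPM, with a log2 fold change of -4.95 ± 0.75 (edgeR adjusted p = 0.00057), or -5.47 ± 0.43 without replicate 3 (adjusted p = 2e-06). In the libraries labelled Carlos it held 37.5, 42.2 and 17.6 CPM, between Carlos replicate 3 and its partners.

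Taken over all 6 mature libraries against Carlos at E-L 35, a comparison that no exchange of names at E-L 38 can alter, 6588 genes were called (37.3%), 2759 higher (15.6%) and 3829 lower (21.7%). Mature berries of both cultivars are set against Carlos alone here, so a cultivar difference remains part of each fold change under either naming. At least 16-fold changes numbered 42 up (0.238%) and 355 down (2.01%). Without replicate 3, 5248 genes were called (29.3%), 2315 up (12.9%) and 2933 down (16.4%), and 16-fold changes numbered 54 (0.302%) and 175 (0.978%). The excess of deep falls was therefore present here as well, and smaller without replicate 3. In a count of ranks alone, all 6 mature libraries lay above all 3 Carlos E-L 35 libraries in 1902 genes and below them in 2061, together 22.4% of genes. With the 3 libraries labelled Carlos alone, groups did not overlap in 45.3% of genes, 3991 higher and 3999 lower, and in 60.6% without replicate 3. Smaller groups fail to overlap more often by rank alone, so these shares cannot be compared with each other.

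VIT_02s0025g01360 and VIT_05s0077g01150, given above, were also the rises named within the limits over all 6 mature libraries, with log2 fold changes of 4.34 ± 0.54 (edgeR adjusted p = 5.2e-05) and 3.40 ± 0.49 (adjusted p = 0.00017), or 4.09 ± 0.60 and 3.70 ± 0.54 without replicate 3 (adjusted p = 0.00017 and 0.00018). The largest fall within the limits was in VIT_09s0002g04850, which stood at 38.7, 29.2 and 206 CPM in Carlos at E-L 35. It held 0, 0.0445 and 0 CPM in the libraries labelled Carlos at E-L 38 and 12.3, 11 and 19.5 CPM in those labelled Noble. Every mature library was thus below every Carlos E-L 35 library, those labelled Carlos nearly at 0. The log2 fold change was -7.44 ± 0.85 (edgeR adjusted p = 2.7e-05), and -6.03 ± 0.71 without replicate 3 (adjusted p = 3.3e-05), a value that depends on the prior count because of the libraries at 0. VIT_06s0004g01300 went from 15.3, 15.2 and 9.6 CPM to 0, 0 and 0.042 CPM in the libraries labelled Carlos and 5.18, 5.42 and 5.41 CPM in those labelled Noble. In Noble at E-L 35, VIT_09s0002g04850 was at 2.37, 20.8 and 5.21 CPM and VIT_06s0004g01300 at 0.0894, 0.0655 and 0.384 CPM. The log2 fold change of VIT_06s0004g01300 was -5.39 ± 0.43 (edgeR adjusted p = 2.3e-06), -5.58 ± 0.39 without Carlos E-L 35 replicate 3 (adjusted p = 6.4e-07) and -6.35 without Carlos-labelled E-L 38 replicate 3, and it too depends on the prior count.

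Set against Noble at E-L 35, the libraries labelled Carlos at E-L 38 gave 3858 calls (21.8%), 1729 higher (9.79%) and 2129 lower (12.1%), with 29 at least 16-fold up (0.164%) and 286 down (1.62%). This comparison holds none of the Carlos E-L 35 libraries, but the spread estimated over all 18 did: without replicate 3 of that group the calls numbered 5800 (32.4%), 2624 up (14.7%) and 3176 down (17.7%). They numbered 1993 without Carlos-labelled E-L 38 replicate 3 and 2455 without Noble E-L 35 replicate 2. On log2(TPM + 1) with limma, 746 of 3707 calls were higher (20.1%), while the median of all genes was shifted by -0.161.

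Against Noble at E-L 35, the limits named VIT_19s0177g00090 and VIT_07s0005g03410 as the largest falls. VIT_19s0177g00090, with whole counts, stood at 1640, 5940 and 2650 CPM in Noble at E-L 35 and at 23.6, 46 and 3.36 CPM in the libraries labelled Carlos at E-L 38, with no overlap (log2 fold change -7.13 ± 1.48, edgeR adjusted p = 0.0042). In Carlos at E-L 35 it held 626, 594 and 24800 CPM, so it was lower in the mature libraries labelled Carlos than in either cultivar at veraison. VIT_07s0005g03410 stood at 2700, 21200 and 3630 CPM in Noble at E-L 35, with replicate 2 the highest, and its log2 fold change was -5.12 ± 1.21 (edgeR adjusted p = 0.009), or -3.58 without that replicate. Of the rises, VIT_14s0128g00570 rested on 1 library: it held 3.2, 4.01 and 165 CPM in the libraries labelled Carlos and 0.447, 0.393 and 2.35 CPM in Noble at E-L 35. Its log2 fold change was 5.77 ± 1.52 (edgeR adjusted p = 0.015), and 1.76 without replicate 3 of the libraries labelled Carlos (adjusted p = 0.39). VIT_03s0063g01330, at 20.4, 2.68 and 75.8 CPM in Noble at E-L 35, rose by 5.75 ± 1.53 (edgeR adjusted p = 0.016), and by 4.32 without that E-L 38 library (adjusted p = 0.064). Both rises also lost their call without Noble E-L 35 replicate 1 or without replicate 2. That of VIT_14s0128g00570 was lost with limma-voom and in the compared groups alone as well.

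Whether the change from veraison to maturity differed between the cultivar labels was tested as an interaction, the log2 fold change of the libraries labelled Carlos minus that of the libraries labelled Noble, each against its own E-L 35 group. It was called in 5890 genes (33.4%), 2914 with the higher value in the libraries labelled Carlos (16.5%) and 2976 with the lower (16.9%). Without Carlos E-L 35 replicate 3, 7079 genes were called (39.5%), 3534 (19.7%) and 3545 (19.8%). On log2(TPM + 1), 3475 of 5433 calls had the higher value in the libraries labelled Carlos (64.0%), with the median of all genes shifted by 0.132. An exchange of names at E-L 38 would place the cultivar difference of both stages in this interaction, so that it cannot be told apart from a cultivar difference in ripening.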

How the data were processed

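Per the labels' protocols, RNA for 18 berry libraries was isolated with TRIZOL, freed of DNA with DNase and converted with a directional kit. STAR 2.7.6a and RSEM 1.3.3 were used, per the submitters' processing notes, while build, annotation and strand setting are not given in the sources used. The authors deposited an expected count, a TPM and an FPKM value for 27228 identifiers per library, per the file headers. The deposited expected counts divide reads among similar genes, and 2667 genes had non-whole values in some library (tolerance 0.001). Deposited TPM, in which the authors correct for length and a common library total, served to describe abundance. The FPKM the authors deposited was not used.

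Expected counts were rounded. Genes were filtered with filterByExpr, which left 17657 (17899 without Carlos E-L 35 replicate 3), scaled by TMM, and tested with edgeR 4.0.16 in R 4.3.3 by the quasi-likelihood F test on all 18 libraries, with 1 coefficient per group. The standard error is the size of the log2 fold change divided by the square root of F. Benjamini-Hochberg adjustment ran over every gene tested. Alternatives used limma 3.58.1, DESeq2 1.42.0, other filters and scalings, and fewer libraries. Only the edgeR test of the first comparison was tried on simulated counts. No library was made to stand apart in them, so the trial does not cover a library like Carlos E-L 35 replicate 3.

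The comparisons, gene lists and rules were chosen with earlier results of these data known. Named genes are, per comparison, the 2 highest and 2 lowest log2 fold changes without Carlos E-L 35 replicate 3. They had to be called the same way with all libraries, to average 10 CPM or more in the higher and 1 CPM or more in the lower group, and to show no overlap of libraries. For the interaction only 10 CPM in some group was asked. The first comparison adds the 2 largest gains and losses in CPM, and the genes that mark a cultivar or set replicate 3 apart were named by level. The rule for genes marking a cultivar at both earlier stages was added after the data had been seen. Replicates agreed less closely than sampling noise would give, so no library was treated as another one sequenced again. Whether replicates came from the same RNA or the same berries cannot be told from this.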

Additional observations from a re-analysis of the deposited data

Results flagged for a closer look

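The change from veraison to maturity differed between the cultivar labels in 5890 genes by the interaction test of edgeR, which is why this count and the genes with the largest differences without Carlos E-L 35 replicate 3, among those at 10 CPM or more in some group, are given here. The values are log2 fold changes of the libraries labelled Carlos minus those of the libraries labelled Noble, each against its own E-L 35 group. Where a group is at or near 0 they depend on the prior count and are no bound.

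VIT_06s0004g05330 differed by 20.14 ± 1.48 (edgeR adjusted p = 2.6e-07). It held 0, 0 and 0.186 CPM in Carlos at E-L 35 and 128, 107 and 167 CPM in the libraries labelled Carlos at E-L 38, compared with 47.4, 13.1 and 43.4 CPM in Noble at E-L 35 and 0, 0 and 0.164 CPM in the libraries labelled Noble. VIT_06s0004g05400 differed by 20.14 ± 1.63 (edgeR adjusted p = 6e-07) and had the same arrangement, at 0.0393, 0 and 0.839 CPM and then 154, 203 and 339 CPM under the Carlos label, and 50.9, 18 and 77.1 CPM and then 0, 0 and 0.082 CPM under the Noble label. Both genes moved in opposite directions under the 2 labels in every library, and their differences were 23.76 and 23.56 without Carlos E-L 35 replicate 3. Their expected counts were not whole in 14 and 12 libraries.

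VIT_06s0004g01300 differed by -14.35 ± 0.84 (edgeR adjusted p = 4.2e-08) and was at 0.0894, 0.0655 and 0.384 CPM in Noble at E-L 35, below all 3 libraries labelled Noble at E-L 38. VIT_19s0015g02680 differed by -13.07 ± 2.21 (edgeR adjusted p = 0.00039). Without Carlos E-L 35 replicate 3 these differences were -14.57 and -13.67. Each of the 4 genes was low in Carlos at E-L 35 where it was low in the mature libraries labelled Noble, or high in both, apart from replicate 3 for VIT_19s0015g02680. The differences cannot be told apart from an exchange of cultivar names at E-L 38.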

How the results depend on the processing

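The Carlos-labelled step gave 7149 calls and 5859 to 6886 with 1 of its libraries left out, 6219 without replicate 3 of both stages, and 6092 to 7657 under other tools, filters and scalings with all 18 libraries. Fitted to the 6 libraries alone it gave 2746, and 5031 there without Carlos E-L 35 replicate 3. Falls of 16-fold or more numbered 35 on log2(TPM + 1), a scale that shortens the change of low genes. Fitted to the compared groups alone, the step to the libraries labelled Noble gave 1015 calls, that against Noble at E-L 35 gave 2317 and that of both labels 3907. Leaving out 1 library of the groups compared gave 2145 to 4150, 1993 to 3213 and 5248 to 6313 calls for these, and 5003 to 7079 for the interaction. The comparison against Noble at E-L 35 moved further, to 5800 calls, without Carlos E-L 35 replicate 3, which is outside its groups. No pairing by shared replicate number was seen: deviations of same-numbered Carlos libraries at E-L 35 and E-L 38 correlated at -0.063, -0.097 and -0.137. For libraries of different number the correlations ran from -0.096 to 0.123. These values are not independent, since deviations within a group of 3 libraries depend on each other. Replicate 3 also stands far from its partners at E-L 35, so the values cannot decide whether libraries are paired. With a replicate block, the Carlos-labelled step gave 6644 calls in all 18 libraries and 522 in the compared groups alone. In the same order as above, the replicate block in the compared groups alone gave 364, 1909, 2800 and, for the interaction, 3717 calls. Among the genes present at E-L 32 in Noble and at 0 in Carlos, the share that reached 1 CPM was 58.8% in the libraries labelled Carlos at E-L 38, 83.3% for genes chosen at 20 CPM and 53.6% at 5 CPM. In the libraries labelled Noble it was 66.7%, 72.2% and 56.0%, and 64.7% to 67.6% with 1 library left out. Among values of named genes under the alternatives, 406 kept direction and call, 16 kept direction but lost the call, and 0 reversed. Every gene named for a rise, fall, gain or loss in the Carlos-labelled step was among the lost calls under 1 alternative. That was the replicate block in the compared groups alone, with edgeR adjusted p from 0.051 to 0.19. The cause of these changes was not tested.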

Other observations

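Genes with the most extreme level in Carlos E-L 35 replicate 3 are described without a test, since that library chose them. VIT_19s0015g00540 stood at 5.07, 2.91 and 445 CPM in the 3 replicates, and VIT_10s0071g01120 at 16.4, 17.3 and 823 CPM. At the other end, VIT_10s0003g02510 stood at 344, 352 and 0 CPM, and VIT_04s0079g00690 at 4290, 4210 and 5.92 CPM. For VIT_04s0079g00690, replicate 3 lay near Carlos at E-L 32, which held 2.45, 2.99 and 3.02 CPM, while replicates 1 and 2 lay near the libraries labelled Carlos at E-L 38, which held 3680, 4300 and 5430 CPM. VIT_10s0003g02510 was likewise at 0 CPM in every Carlos E-L 32 library. The 2 genes highest in replicate 3 lay the other way, with Carlos E-L 32 nearer to replicates 1 and 2. There VIT_19s0015g00540 held 0.209, 0.0788 and 0.248 CPM, and VIT_10s0071g01120 held 8.77, 10 and 9.11 CPM. Noble E-L 35 replicate 2 shared only a small part of what set Carlos replicate 3 apart: 16 of the 281 genes that were higher in Carlos replicate 3 were also at least 4-fold higher in that Noble library than in its partners (5.69%, compared with 0.256% of all 10536 genes).

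VIT_12s0059g02350 was the second most abundant gene present in Noble and at 0 in Carlos at E-L 32. It held 188, 186 and 1330 CPM in Carlos at E-L 35, 113, 532 and 156 CPM in Noble at E-L 35, 91.7, 87.1 and 30.8 CPM in the libraries labelled Carlos at E-L 38 and 84.4, 69.2 and 47.4 CPM in those labelled Noble. The cultivars thus overlapped in it from veraison on. VIT_06s0061g00970, the 1 gene with the reverse pattern at E-L 32, held 21.7, 21.2 and 22.3 CPM in Carlos there and under 1 CPM in every library of E-L 35 and E-L 38.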
